A study of Mus musculus with 4 samples.

Results

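The interferon-inducible GTPases examined here were 8 genes: Irgm1, Irgm2, Igtp and Iigp1 of the immunity-related GTPase (IRG) family, and Gbp2, Gbp3, Gbp6 and Gbp7 of the guanylate-binding protein (GBP) family. A gene was taken from the array table only through rows annotated with its symbol alone. This gave 7 of the 8 genes, out of 22180 genes in all, because the only row of Gbp2 is shared with Gbp2b and was not used. Of several rows the brightest was to be taken, but each of the 7 genes had 1 row, so this choice had no effect. The set was selected on the signals of these same arrays, in that differences of Irgm2 and Gbp3 between the groups were already known when it was drawn up, so the differences given here are descriptive. Gbp6, with a mean log2 signal of 4.67, lay under the limit for dim genes of 4.835 (the 25th percentile of all genes). The other 6 were tested among 16635 genes, and the dimmest of them was Irgm1, with a mean of 5.51.

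The RNA came from Thy1+ LSK bone marrow cells, a sorted fraction with Sca-1 and Kit but without lineage markers, in which blood stem cells are enriched. The 4 whole-transcript Affymetrix arrays fell into 2 Nol3+/+ samples and 2 Nol3-/- MPN samples, all from untreated C57BL/6 mice aged 11 to 18 months. Nol3 encodes an apoptosis inhibitor also called ARC, and MPN is taken as myeloproliferative neoplasm. The sample labels give MPN to Nol3-/- only, although the series title can be read as giving it to both genotypes. The sources used here name no driver or promoter behind the disease, and do not say whether an array held RNA of 1 animal or of a pool, so p-values measure the spread between these arrays only.

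The arrays differed in ways that bear on all results here. Nol3+/+ replicate 1 stood apart, with correlations across genes of 0.899 to 0.911 to the other arrays, which correlated with each other at 0.929 to 0.949. Nol3 itself did not separate the groups (5.31 and 5.52 in Nol3+/+ against 5.38 and 5.50 in Nol3-/- MPN), so its row does not check the genotype labels. Xist, the RNA of the inactive X chromosome, read 5.28 to 5.43 in Nol3+/+ and 10.7 to 10.9 in Nol3-/- MPN. Genotype, the disease label and sex-linked signal therefore follow the same division of the arrays and cannot be told apart. Of the sort genes, Kit read 7.39 to 8.38 and Thy1 4.64 to 5.24, the latter around the dim limit, while Ly6a (Sca-1) had no row of its own.

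Interferons are cytokines that act through JAK kinases and interferon regulatory factors to switch on a large set of defence genes. IRG and GBP proteins are among the most strongly induced products of interferon-gamma in mouse cells, where they bind the membranes of vacuoles that hold bacteria or parasites. In the IRG family, Irgm1, Irgm2 and Igtp (also called Irgm3) sit on the cell's own membranes and regulate effector members such as Iigp1 (Irga6), which coat the vacuole. GBPs are larger relatives of dynamin that assemble on pathogens and on free lipopolysaccharide and promote the caspase-11 response. Interferon-gamma also acts on haematopoietic stem cells, and mice without Irgm1 are known for defects of these cells.

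The transcription start regions of the members that could be examined hold letters that interferon-activated factors are known to bind. They are shown here because a motif described below, the ISRE core, matched in each of these members. RefSeq windows of assembly GRCm38.p6, from 250 bases before to 50 bases after the start, matched 6 of the 8 members. Gbp6 and Iigp1 had no entry. Each line below gives the 120 bases before the start, 5′ to 3′ on the gene's strand, with matches to the core of the interferon-stimulated response element (ISRE) and to the gamma-activated site (GAS) in capitals.
Irgm2, chr11:58214857-58214976, plus strand: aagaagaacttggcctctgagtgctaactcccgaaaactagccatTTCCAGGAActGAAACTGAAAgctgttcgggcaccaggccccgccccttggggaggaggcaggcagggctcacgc
Igtp, chr11:58199436-58199555, plus strand: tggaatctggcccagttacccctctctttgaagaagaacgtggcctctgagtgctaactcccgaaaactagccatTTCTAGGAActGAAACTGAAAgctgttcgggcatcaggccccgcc
Irgm1, chr11:48871421-48871540, minus strand: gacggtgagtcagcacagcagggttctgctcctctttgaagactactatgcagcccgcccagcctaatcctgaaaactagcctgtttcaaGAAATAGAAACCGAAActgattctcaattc
Gbp3, chr3:142559924-142560043, plus strand: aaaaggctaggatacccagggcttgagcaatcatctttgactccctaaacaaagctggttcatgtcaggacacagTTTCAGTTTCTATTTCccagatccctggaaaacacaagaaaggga
Gbp7, chr3:142530216-142530335, plus strand: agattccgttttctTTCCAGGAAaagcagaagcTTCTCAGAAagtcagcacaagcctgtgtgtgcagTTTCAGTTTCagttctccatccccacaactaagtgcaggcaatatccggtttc

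The ISRE core was searched as GAAANNGAAA on both strands, and it matched in all 6 members with a window, Gbp2 included, against 3.44% of 32851 windows of the same length. The GAS was searched as TTCNNNGAA, which reads the same on both strands, and matched in 3 members (Irgm2, Igtp and Gbp7), against 8.3% of all windows. In Irgm1 and in Gbp3 the ISRE core matched at a pair of overlapping positions, and a further start listed for Gbp3 had neither motif in its window. Irgm2 and Igtp hold a GAS followed after 2 bases by an ISRE core on the gene's strand. When Irgm2 bases -120 to -31 were laid against Igtp bases -90 to -1 (counted from the start, with -1 the base before it), 87 of 90 bases were identical. A match of letters is a description and does not show that a factor binds there.

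**Figure D1:**
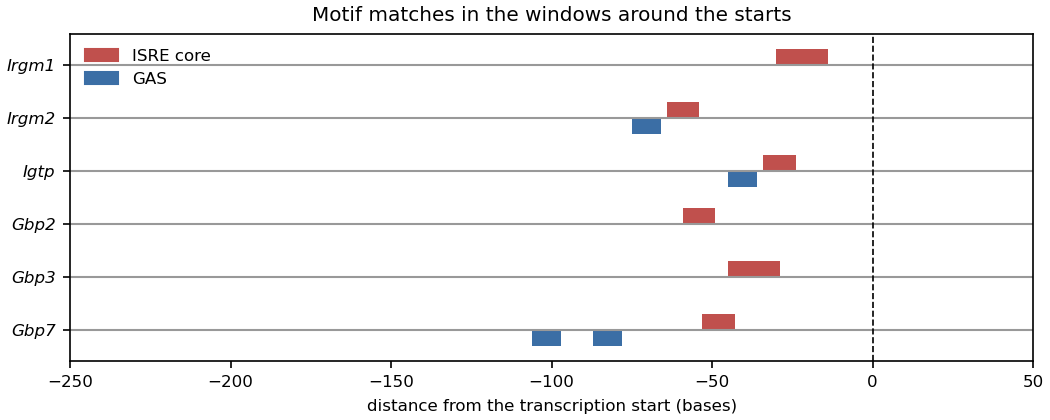
Positions of ISRE core (red, above the line) and GAS (blue, below the line) matches around the transcription start (dashed line) for the 6 members with a RefSeq window, with the distance in bases on the horizontal axis. All matches lie before the start, the nearest ending at base -15 in Irgm1 and the farthest starting at base -106 in Gbp7.

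None of the 6 tested members passed limma's adjusted threshold of 0.05 over all genes, a threshold passed by 0.024% of genes tested, 0.012% with higher values in Nol3-/- MPN. Irgm2 and Gbp3 showed the clearest separation between the groups, Irgm1 and Iigp1 lay higher on average with a wide spread, and Igtp and Gbp7 had nearly equal group means. All 6 differences were above 0, as were those of 51.7% of all genes, and their median was 0.42 log2 units against 0.01 over all genes tested. An unadjusted p under 0.05 with higher values in Nol3-/- MPN was reached by 2 of 6 members, against 3.73% of genes tested. In 3 of 6 members both Nol3-/- MPN arrays lay above both Nol3+/+ arrays, against 19.7% of genes tested. The members were proposed with results of this comparison known, so these counts describe them and support nothing further.

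**Figure D2:**
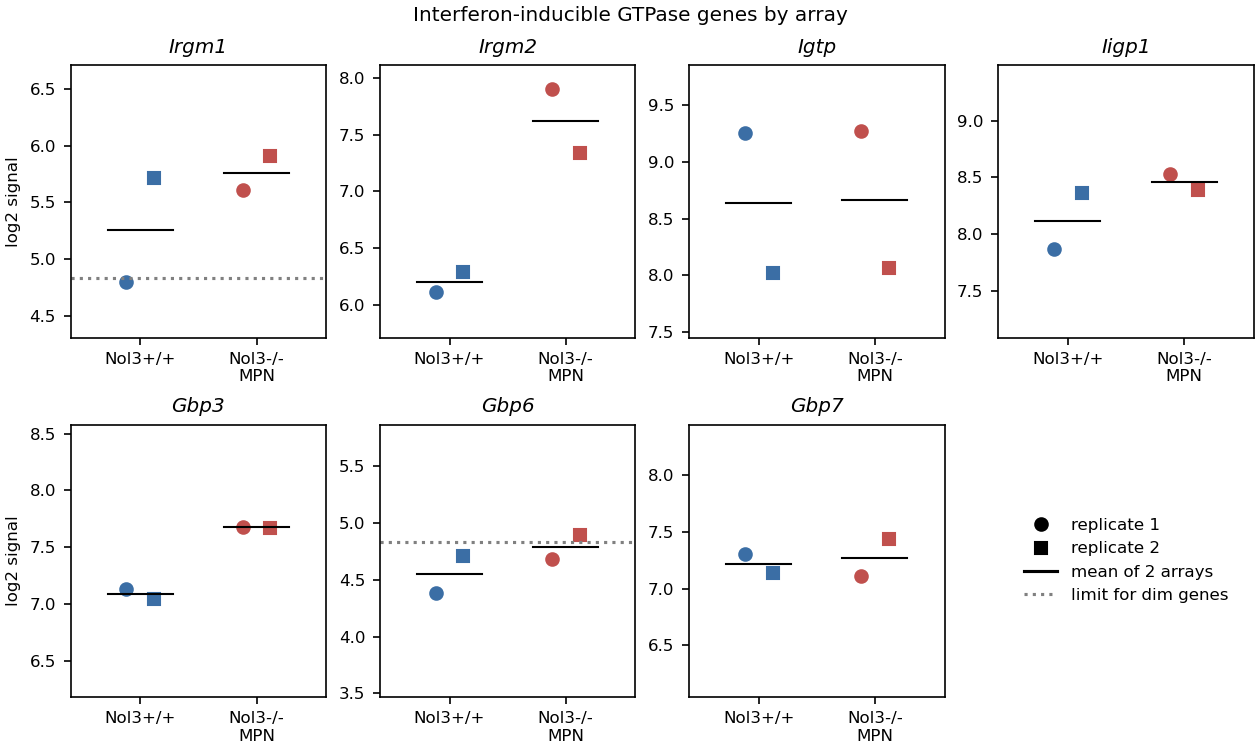
Log2 signal of the 7 measured members on each array (circles replicate 1, squares replicate 2, line the mean of the 2 arrays of a group), with axes of equal span centred on the gene's mean. Irgm2 and Gbp3 separate the groups clearly, whereas Igtp reads about 9.25 and 9.27 on the replicate 1 arrays and 8.02 and 8.07 on the replicate 2 arrays.

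Among the regulatory IRG genes, Irgm2, whose product resides mainly at the Golgi, read 6.11 and 6.29 in Nol3+/+ against 7.90 and 7.33 in Nol3-/- MPN. Both Nol3-/- MPN arrays were the high ones, and the lower of them exceeded the higher Nol3+/+ array by 1.04, which is more than the replicate gaps of 0.18 and 0.57. The log2 difference was 1.42 (SE 0.27, 95% interval 0.74 to 2.10), with a limma adjusted p of 0.775. This corresponds to 2.67-fold, with an interval from 1.67 to 4.27. A difference at least as high was found for 56 of the 16635 genes, 0.337%. The same share was 4.12% for Gbp3, 5.81% for Irgm1, 11.2% for Iigp1, 41.6% for Gbp7 and 45.6% for Igtp. The difference of Irgm2 was known when the set was drawn up, so its place among all genes is a description only. With each array left out in turn the difference of Irgm2 ran from 1.13 to 1.70.

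Irgm1, the regulatory member studied most in blood stem cells, read 4.80 and 5.72 in Nol3+/+ against 5.61 and 5.91 in Nol3-/- MPN. Nol3+/+ replicate 1 alone was low, below the dim limit, and the groups overlapped. Its log2 difference of 0.50 (SE 0.32, interval -0.32 to 1.33, limma adjusted p = 0.863) was 0.04 without Nol3+/+ replicate 1 and 0.97 without Nol3+/+ replicate 2.

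Igtp, a regulatory member of the endoplasmic reticulum, read 9.25 and 8.02 in Nol3+/+ against 9.27 and 8.07 in Nol3-/- MPN. The replicate 1 array was high and the replicate 2 array low in both groups, with a gap of 1.23 in Nol3+/+ and differences between same-numbered arrays of only 0.02 and 0.05. The log2 difference between the groups was 0.03 (SE 0.57, interval -1.42 to 1.49, limma adjusted p = 0.998). A difference as large as that of Irgm2, at 1.42, therefore lies within its interval. The sign turned after quantile normalization, at -0.07, and the value ran from -0.59 to 0.65 with single arrays left out. A gap of at least 1 log2 unit with replicate 1 higher in both groups, a criterion chosen after seeing Igtp, was met by 24 genes tested (0.144%). Igtp and Irgm2 are next to each other on chromosome 11 and share most of the printed start region, yet their signals varied over the arrays in different ways.

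Iigp1, the effector IRG gene among the members, read 7.87 and 8.36 in Nol3+/+ against 8.53 and 8.39 in Nol3-/- MPN. Both Nol3-/- MPN arrays were higher, but the lower of them exceeded Nol3+/+ replicate 2 by only 0.02, and the groups overlapped after median centring or quantile normalization of the arrays. Its log2 difference was 0.35 (SE 0.27, interval -0.33 to 1.02, limma adjusted p = 0.878). It was 0.10 without Nol3+/+ replicate 1 and 0.59 without Nol3+/+ replicate 2.

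Gbp3, a GBP of the cluster on chromosome 3, read 7.13 and 7.04 in Nol3+/+ against 7.68 and 7.67 in Nol3-/- MPN. Replicates lay within 0.09 of each other in Nol3+/+ and within 0.01 in Nol3-/- MPN, and the groups were separated by 0.54. The log2 difference was 0.59, or 1.51-fold (SE 0.21, interval 0.06 to 1.12, limma adjusted p = 0.841). It ran from 0.55 to 0.63 with single arrays left out. Its unadjusted p, under 0.05 over all arrays, was above 0.05 when the replicate number served as a block, after quantile normalization (log2 difference 0.48) and with any single array left out.

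Gbp7, known in macrophages for a part in the oxidative burst, read 7.30 and 7.14 in Nol3+/+ against 7.11 and 7.44 in Nol3-/- MPN. The Nol3-/- MPN arrays held both its lowest and its highest value, and the log2 difference was 0.05 (SE 0.23, interval -0.54 to 0.64, limma adjusted p = 0.987), with the sign turned after quantile normalization, at -0.03. Gbp6, a GBP of the cluster on chromosome 5, read 4.39 and 4.71 in Nol3+/+ against 4.68 and 4.90 in Nol3-/- MPN. Of these only the last value reached above the dim limit, so the average difference of 0.24 cannot be separated from background. The Nol3+/+ replicate 1 array held the lowest value of 4 of the 7 measured members. The highest value lay on a Nol3-/- MPN array for all 7, counting the dim Gbp6 and Igtp, where it was 9.27 against 9.25. The same shares over all genes were not counted, so both counts only describe the members.

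**Figure D3:**
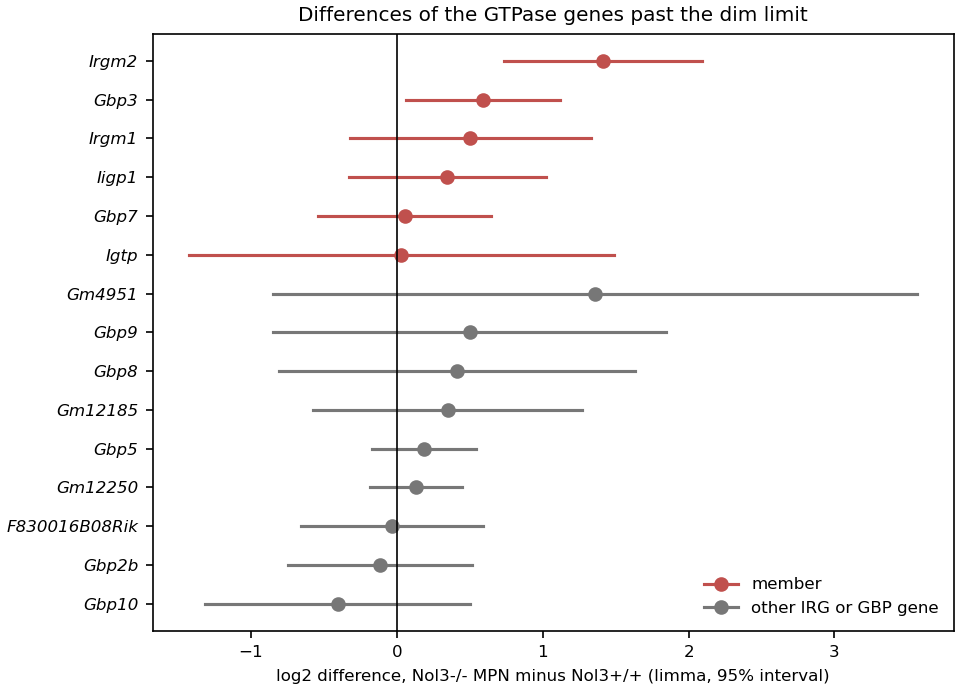
Log2 difference (Nol3-/- MPN minus Nol3+/+) with limma's 95% interval for the 6 tested members (red) and 9 other tested IRG and GBP genes (grey). Only the intervals of Irgm2 and Gbp3 leave out 0, and no gene shown passed the adjusted threshold.

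Of the IRG and GBP genes outside the set, 9 were tested, and 0 passed limma's adjusted threshold or an unadjusted p under 0.05. Over all genes tested, 3.73% were higher and 2.07% lower at that unadjusted p. A count of 0 of 9 therefore does not set these relatives apart from genes at large. In the IRG family, Gm4951 had an average difference of 1.36 (SE 0.87), which came from 1 array: it read 6.21 in Nol3+/+ replicate 1 and 8.91, 9.05 and 8.78 elsewhere. Gm12250 (Irgb10), an effector that acts on bacterial membranes and the neighbour of Igtp, read 5.16 and 5.04 in Nol3+/+ against 5.20 and 5.26 in Nol3-/- MPN, a difference of 0.13. Gm12185 differed by 0.35 and F830016B08Rik by -0.03, with overlapping groups. Gm5431, 9930111J21Rik2, Irgc1 and Irgq were dim, with means from 3.94 to 4.75, and Tgtp1, Tgtp2 and 9930111J21Rik1 had no row of their own.

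Of the 5 tested GBP genes outside the set, 3 varied more within the Nol3-/- MPN group than between the groups. Gbp9 read 6.09 and 5.95 in Nol3+/+ against 7.33 and 5.71 in Nol3-/- MPN. Its neighbour Gbp8 read 5.02 and 5.10 in Nol3+/+ against 6.22 and 4.73 in Nol3-/- MPN. In both, Nol3-/- MPN replicate 1 was the high array and replicate 2 the lowest of the 4. Gbp10, on the same chromosome, was low in Nol3-/- MPN replicate 2, at 5.95 against 6.81 to 6.94 on the other arrays. Gbp5, a GBP known for its link to inflammasomes, differed by 0.18 with both Nol3-/- MPN arrays higher, and Gbp2b, once called Gbp1, by -0.12. The median of the 5 tested genes was 0.18, and it was -0.31 without Nol3-/- MPN replicate 1. Gbp4 and Gbp11 were dim, as were Mx1 and Mx2, antiviral dynamin-like GTPases with means of 4.42 and 4.78, and Gvin1 had no row of its own. IRG and GBP genes include close copies of each other, so single rows of either family may pick up signal from a relative and are uncertain.

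**Figure D4:**
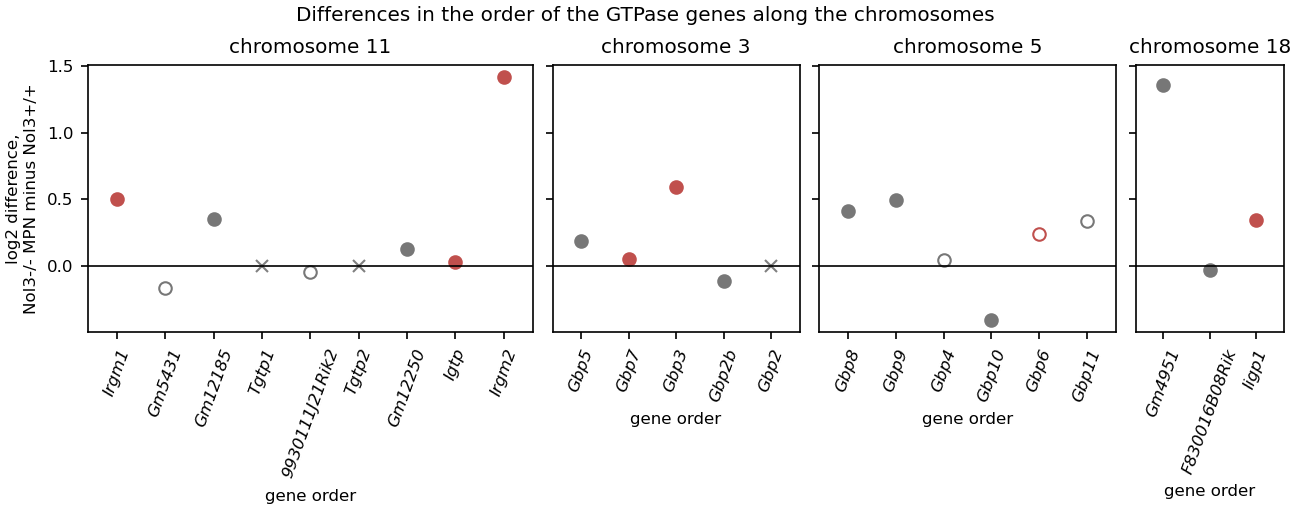
Log2 difference of the IRG and GBP genes on chromosomes 3, 5, 11 and 18, without 9930111J21Rik1, in their order along each chromosome in RefSeq GRCm38.p6 (members red, others grey, open symbols below the dim limit, crosses on the zero line genes with no row of their own). Neighbours differ: Gbp3 lies at 0.59 between Gbp7 at 0.05 and Gbp2b at -0.12, and Irgm2 at 1.42 beside Igtp at 0.03.

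Of the ligands that induce these GTPases, Ifng read 5.05 and 5.37 in Nol3+/+ against 5.08 and 4.85 in Nol3-/- MPN. Ifna2, of a family of near-identical genes, read 6.91 and 8.29 in Nol3+/+ against 6.63 and 6.75 in Nol3-/- MPN. Its difference of -0.91 (SE 0.48) came mostly from Nol3+/+ replicate 2. Il18, a cytokine that drives interferon-gamma production, read 6.67 and 6.59 in Nol3+/+ against 5.30 and 5.85 in Nol3-/- MPN. This was a difference of -1.06 (SE 0.23, limma adjusted p = 0.841). Il18 was the only 1 of 10 tested ligand and inducer genes at an unadjusted p under 0.05, and it was lower, as were 2.07% of all genes at that p.

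Among receptors and kinases, 0 of 9 tested genes reached an unadjusted limma p under 0.05. Over all genes tested, 3.73% were higher and 2.07% lower at that p, so this count does not set the list apart. Ifngr1, the ligand-binding chain of the interferon-gamma receptor, read 9.19 and 8.76 in Nol3+/+ against 8.99 and 8.93 in Nol3-/- MPN, and Ifngr2 differed by -0.02. Ifnar1 and Ifnar2, the chains of the type I receptor, differed by 0.14 and 0.31, and the kinase gene Jak2 by 0.26, all with overlapping groups.

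Of the transcription factors, Irf1, which activates IRG and GBP genes, read 5.64 and 5.42 in Nol3+/+ against 5.79 and 5.30 in Nol3-/- MPN. Stat2 and Irf9, partners in the complex that binds the ISRE, differed by -0.13 and 0.24. Irf8, a factor of monocyte and dendritic cell development that also binds such elements, read 7.86 ± 0.19 in Nol3+/+ against 6.03 ± 0.54 in Nol3-/- MPN (mean ± SD, n = 2 each). Its difference of -1.83 (SE 0.32, limma adjusted p = 0.696) ran opposite to those of Irgm2 and Gbp3, and it was the only 1 of 8 tested factors at an unadjusted p under 0.05, against 2.07% of all genes lower at that p.

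Of 7 tested inhibitors of the pathway, Ptpn11, a phosphatase gene with broader roles in cytokine signalling, read 4.87 and 4.77 in Nol3+/+ against 5.44 and 5.31 in Nol3-/- MPN, a difference of 0.56 (SE 0.13, limma adjusted p = 0.841). Its Nol3+/+ mean of 4.82 lay under the dim limit, so this gene passed the limit only through the group where it is higher and the size of its difference is uncertain. Usp18 and Ptpn2 differed by 0.23 and 0.21 with overlapping groups, and Socs1 was dim.

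Among the other targets of interferon-gamma, 12 of 16 tested genes had higher and 4 lower means in Nol3-/- MPN, with a median difference of 0.14 (0.08 without Nol3-/- MPN replicate 2), and 2 of 16 were higher at an unadjusted limma p under 0.05, against 51.7% of all genes with a difference above 0 and 3.73% higher at that p. The immunoproteasome gene Psmb9 read 7.86 and 7.77 in Nol3+/+ against 8.45 and 8.32 in Nol3-/- MPN, a difference of 0.57 (SE 0.22, limma adjusted p = 0.841). Psmb8 differed by 0.41 and B2m, the light chain of MHC class I, by 0.22, both without overlap. Of the 16 tested genes of this list, 6 were higher and 2 lower without overlap, against 19.7% and 15.9% of all genes tested.

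Among antiviral targets of type I interferon, 22 of 29 tested genes had higher and 7 lower means, with a median of 0.24, and 3 of 29 were higher at an unadjusted limma p under 0.05, again against 51.7% and 3.73% of all genes. These were Parp9 at 0.70, Ifi27 at 0.95 and Ifitm1 at 0.48 (limma adjusted p = 0.841 for each). Without Nol3-/- MPN replicate 1 the median of this list was 0.14 and 17 of 29 genes were higher, against a highest value of 0.31 without Nol3+/+ replicate 2.

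**Figure D5:**
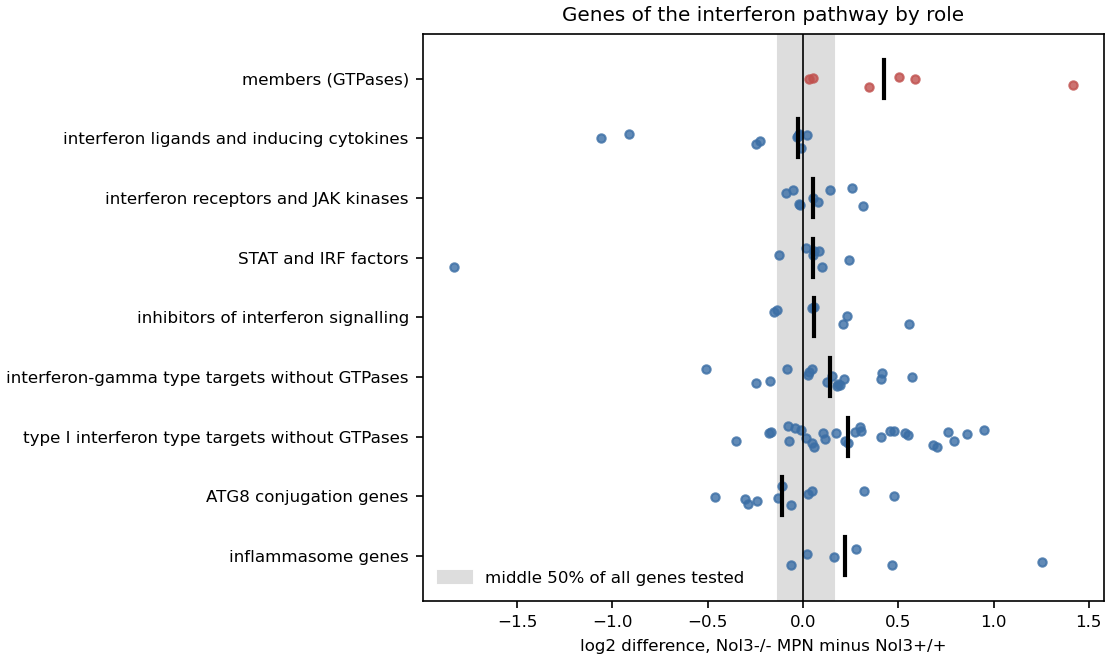
Log2 difference (Nol3-/- MPN minus Nol3+/+) of each tested gene of the interferon pathway by role (points), with the median of each list as a black line and the middle 50% of all genes tested, from -0.13 to 0.16, in grey. The medians of the ligand, receptor, transcription factor and inhibitor lists lie between -0.03 and 0.06, and those of the members and of the type I interferon targets at 0.42 and 0.24. Those of the inflammasome genes, the interferon-gamma targets and the ATG8 conjugation genes lie at 0.22, 0.14 and -0.11.

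IRG and GBP proteins act together with the machinery that attaches ATG8 proteins to membranes and with inflammatory caspases. Of 11 tested ATG8 conjugation genes, 4 had higher and 7 lower means, against 51.7% of all genes tested with a difference above 0. Their median was -0.11, and it was 0.05 without Nol3+/+ replicate 1. Atg12, a ubiquitin-like protein of the conjugation step, differed by 0.48 (limma adjusted p = 0.841), Atg3 by -0.46 and Atg4b by -0.29. Casp4, which encodes caspase-11, a protease that Irgm2 is known to restrain, read 4.93 and 4.85 in Nol3+/+ against 6.35 and 5.94 in Nol3-/- MPN, a difference of 1.25 (SE 0.18, limma adjusted p = 0.460). Its Nol3+/+ values lay close to the dim limit of 4.835, so the size of this difference is uncertain. Casp1 differed by 0.47 and Gsdmd, the pore-forming substrate of these caspases, by 0.28, both without overlap. Of 6 tested inflammasome genes, 4 were higher and 0 lower without overlap, against 19.7% and 15.9% of all genes tested.

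The markers of the sorted cells themselves differed in both directions around a median of 0.01. Hlf, a transcription factor gene of stem cells, read 6.44 and 6.09 in Nol3+/+ against 5.37 and 5.50 in Nol3-/- MPN, a difference of -0.83 (SE 0.18, limma adjusted p = 0.841). Cd48, a surface protein gene of progenitors beyond the stem cell, read 6.42 and 7.76 in Nol3+/+ against 8.99 and 8.01 in Nol3-/- MPN, a difference of 1.41 (SE 0.56, limma adjusted p = 0.841) that is about the size of that of Irgm2. Mecom differed by 0.31, and each of these genes separated the groups without overlap, Mecom by only 0.02. Of the 10 tested markers of this list, 2 were higher and 2 lower without overlap, against 19.7% and 15.9% of all genes tested.

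Mature blood cells also carry these GTPases, and in a bulk sample fewer cells of a type and less RNA per cell cannot be told apart. All 4 tested monocyte and macrophage markers of 8 listed had higher means in Nol3-/- MPN, with a median of 0.28, and Adgre1 (F4/80), Mrc1 and Fcgr1 differed by 0.37, 0.33 and 0.15, while Csf1r, Cd14 and Vcan were dim. Of all genes tested, 51.7% had a difference above 0. The summed linear signal over the 7 measured markers, 3 of them dim, ran from 415.1 to 452.1 in Nol3+/+ and from 490.1 to 516.9 in Nol3-/- MPN. Without Lyz2 it ran from 197.4 to 201.1 and from 217.2 to 238.0. All 4 tested B cell markers were higher, with Cd79b at 0.50, Cd79a at 0.19 and Ebf1 at 0.17. The B cell sums were 208.8 on both Nol3+/+ arrays and 239.4 to 253.7 in Nol3-/- MPN. Without Cd79b they ran from 150.9 to 151.3 and from 159.2 to 170.3. Of 8 T and NK cell markers 5 were higher, with Nkg7, also expressed by myeloid progenitors, at 0.86, Cd2 at 0.18 and Cd8a at 0.13. Their sum ran from 434.3 to 485.5 in Nol3+/+ and from 555.8 to 562.5 in Nol3-/- MPN, but without Nkg7 it ran from 327.1 to 330.7 and from 323.6 to 328.2.

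Neutrophil markers ran the other way, with 7 of 8 lower, against 8030 of 16635 over all genes tested. S100a9, S100a8 and Retnlg differed by -0.83, -0.86 and -1.46. Retnlg read 5.09 and 7.12 in Nol3+/+ against 4.83 and 4.47 in Nol3-/- MPN, where its mean lay under the dim limit. It passed the limit only through the group where it is higher, and its difference came mostly from Nol3+/+ replicate 2. The sums of the neutrophil markers ran from 982.3 to 1554.9 in Nol3+/+ and from 761.9 to 844.3 in Nol3-/- MPN. Without S100a9 these sums overlapped, from 495.7 to 878.0 and from 455.1 to 503.1. Dendritic cell markers had a median of -0.15, with H2-Aa at -0.89, Itgax at 0.27 and Xcr1 at -0.15. The erythroid median was 0.00, where Tfrc lay at 0.66, Rhd at -0.35 and Epor at -0.04. Megakaryocyte markers had a median of -0.19, with Pf4 at 0.59, Itgb3 at -0.30 and Itga2b at -0.19. The Nol3+/+ mean of Pf4 (4.74) and the Nol3-/- MPN mean of Itgb3 (4.73) lay under the dim limit. Each passed the limit only through the group where it is higher, so the sizes of these 2 differences are uncertain. Endothelial and stromal markers had a median of -0.04, with Col3a1 at -0.35, Pdgfrb at -0.20 and Cdh5 at 0.22. The part of these cell markers in the differences of Irgm2 and Gbp3 was not tested.

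The genes whose row-centred values lay closest to the median pattern of the 6 tested members over the 4 arrays were Plek2, Cnep1r1, Ecd, Hyou1 and Rae1, with root mean square distances from 0.029 to 0.034 log2 units. Their differences ran from 0.49 to 0.57. The median pattern itself read -0.34 and -0.22 in Nol3+/+ against 0.27 and 0.24 in Nol3-/- MPN, and single members such as Igtp lay far from it.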

How the data were processed

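The authors deposited 1 table of normalized log2 signals, with 41345 rows and 4 arrays. The log2 scale was read from the values (2.845 to 13.526), since no source used here names the logarithm's base. The submitters' processing notes list Affymetrix Expression Console and Transcriptome Analysis Console, without versions or the normalization method. Total RNA was amplified before labelling, per the labels' protocols. Without detection calls, dim rows and background look alike, and 4 arrays limit the precision.

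Of the rows, 23521 carried 1 gene symbol, 1814 several and 16010 none, and only the first kind was named. The test was limma 3.58.1 under R 4.3.3, using lmFit and eBayes (trended variance; 2 residual and 3.19 prior degrees of freedom). Benjamini-Hochberg adjustment ran over the 16635 genes past the dim limit. SE is limma's standard error. The fit was tested on simulated data. Both groups carry replicate numbers 1 and 2, but deviations of same-numbered arrays correlated at only 0.049, so no pairing was used.

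The members and gene lists were chosen with earlier results of these data known. Named genes were the members, their measured relatives, the 3 genes with the smallest p of each other list, with some further list members as examples, Ifngr1, Ifngr2, Irf1, Irf8, Irf9, Socs1 and Casp4, the 5 nearest patterns, and Nol3 and Xist; 1 item of this rule is not reported here. Alternatives were the replicate block, each array left out, quantile normalization, median centring, other dim limits and variance models, averaged rows, and leaving out X- and Y-linked genes.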

Additional observations from a re-analysis of the deposited data

How the results depend on the processing

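No member passed limma's adjusted threshold under any of the 13 alternatives, and 2 of 6 had higher values at an unadjusted p under 0.05 in the reported fit. That count was 1 with the replicate block and 1 after quantile normalization, and it ran from 1 to 2 with single arrays left out. Irgm2 stayed under an unadjusted 0.05 in all 13, with limma adjusted p-values from 0.252 to 1.0. The number of members higher without overlap ran from 4 to 5 with single arrays left out, where fewer arrays leave fewer chances to overlap. The same share over all genes was not counted at these settings, so this number cannot be compared with the 3 of 6 in the reported fit. The median member difference ran from 0.38 to 0.57 with single arrays left out. Quantile normalization turned the sign of Gbp7, at -0.0315, and of Igtp, at -0.0732; the cause was not tested. With single arrays left out Gbp7 ran from -0.11 to 0.22 and Igtp from -0.59 to 0.65. The replicate block changed no other call of a member. Over all genes limma called 4, against 0 with the replicate block, 0 without either Nol3-/- MPN array, 18 without Nol3+/+ replicate 1, 39 without Nol3+/+ replicate 2, 0 in the ordinary test, 6 with averaged rows and 0 without X- and Y-linked genes. Quantile normalization and left-out arrays for the gene lists, and marker sums without the gene that differed most, were chosen after seeing the data. Rows under the dim limit, such as that of Gbp6, cannot be told from background.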
